A study of Mus musculus with 4 samples.

Results

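The genes described here encode surface receptors and secreted proteins with which macrophages take up modified lipoproteins and dying cells. They are 10 named genes, Msr1, Cd36, Mrc1, Trem2, Mertk, Axl, Mfge8, Apoe, Gpnmb and Fn1, of 19938 genes measured on the arrays. Members were taken by gene symbol through the platform annotation of the probe sets, and each of the 10 was represented by 1 probe set that carried no other symbol. They were chosen with earlier results of these data known, so counts of members beside those of all genes are descriptions and no test. RNA came from mouse colony-forming cells of C57BL/6 background, grown in methylcellulose with fetal bovine serum and 4 cytokines (GM-CSF, IL-3, IL-6 and stem cell factor), and was measured on 4 Affymetrix whole-transcript arrays. The cells descended from long-term or short-term haematopoietic stem cells (LT-HSC, ST-HSC) that had been transduced with a mock control or with CreER, in which the recombinase Cre is joined to the hormone-binding part of the oestrogen receptor. This gave 4 groups with 1 array each, LT-HSC mock and LT-HSC CreER, and ST-HSC mock and ST-HSC CreER, and the series title names conditional expression of the leukaemia fusion MLL-ENL. How the fusion is encoded, whether all 4 groups carry it, whether CreER was activated and whether RNA of several animals or colonies was pooled are points the sources used here do not give. The design text gives as purpose an initial screen for genes of leukaemic transformation.

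Macrophages clear apoptotic cells in steps: bridging proteins coat phosphatidylserine on the dying cell, receptors on the phagocyte bind the bridge or the lipid itself, and the engulfed cargo is digested in lysosomes, after which cholesterol and fatty acids are stored or exported. Scavenger receptors bind polyanionic ligands such as oxidised lipoproteins and also take part in that uptake. In cultures of myeloid progenitors with GM-CSF and IL-3, macrophages arise beside granulocytes, mast cells and basophils, and dendritic cells, megakaryocytes and fibroblasts can also carry some of these genes.

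With 1 array per group no difference between 2 arrays has a replicate error, so precision is limited by the number of arrays throughout. Levels are the deposited log2 values, and a difference of 1 is a change of 2-fold. The signal floor of an array is its median over probe sets with 1 symbol, between 8.07 and 8.13 on the 4 arrays. A gene counted as 2-fold different stood above the floor on the higher array and differed there by 1 or more. The median difference of all genes past the floor lay between -0.03 and -0.02 in the 4 comparisons. Of 15 measured macrophage markers, 7 stood above the floor on each of the 4 arrays, among them Adgre1 (F4/80), Cd68, Csf1r and Lyz2, and the tissue macrophage genes C1qa, C1qb, C1qc, Marco, Siglec1, Vsig4, Cd163 and Timd4 stood under it on every array. The mean level of that marker list was 9.31 on ST-HSC mock, 9.30 on LT-HSC mock, 9.28 on ST-HSC CreER and 9.11 on LT-HSC CreER. All 14 neutrophil markers stood above the floor on all 4 arrays. These are bulk samples, so fewer macrophages in a colony and less RNA of a gene in each macrophage cannot be told apart.

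The members mostly shared the array of their lowest value, while the order of the other arrays differed between them. Of the 10, 9 had their lowest value on the LT-HSC CreER array, and Apoe had its lowest on ST-HSC CreER. For comparison, 30.0% of the 10411 genes that passed the floor on 1 array or more were lowest on LT-HSC CreER. The highest value lay on LT-HSC mock for 5 members, on ST-HSC mock for 4 and on LT-HSC CreER for Apoe. No member was highest on ST-HSC CreER. Of the same 10411 genes, 28.6% were highest on LT-HSC mock, 27.2% on ST-HSC mock, 20.8% on LT-HSC CreER and 23.3% on ST-HSC CreER. Of the 10 members, 9 were above the floor on all 4 arrays, and Mertk was above it on 3 and 0.12 under it on LT-HSC CreER.

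**Figure D1:**
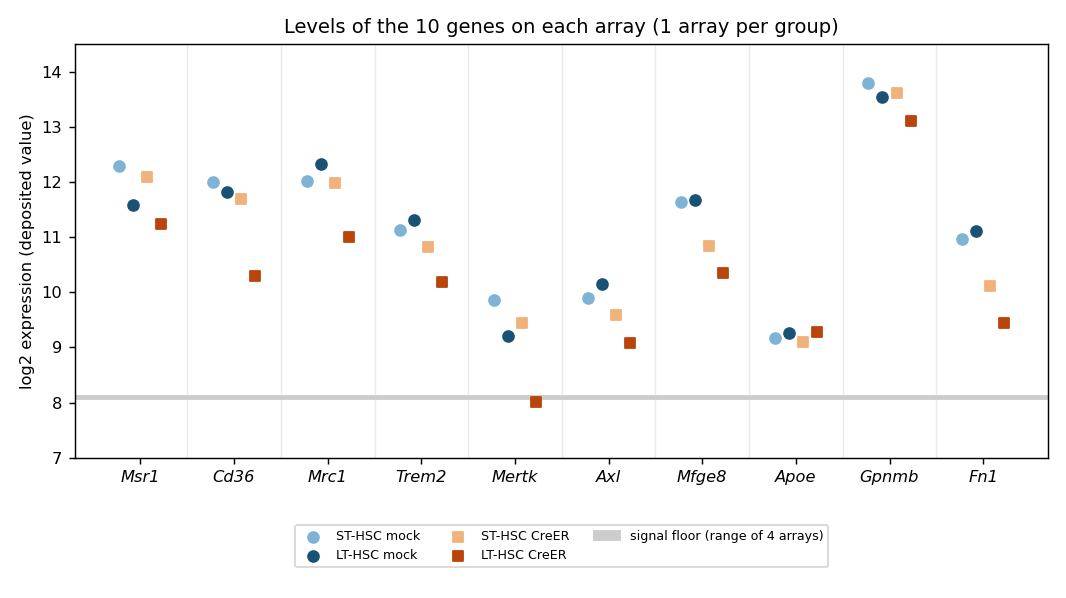
Log2 level of each of the 10 genes (vertical axis) on the 4 arrays, 1 point per array, with the range of the signal floor as a grey band. The LT-HSC CreER point is the lowest of the 4 for every gene except Apoe, and Mertk reaches 8.01 there, under the floor. Heights of different genes come from different probe sets and are not comparable.

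Promoters are shown for Trem2 and Gpnmb, whose windows held a motif match, and for Mfge8 and Mrc1, which held none and were at least 2-fold lower on LT-HSC CreER than on LT-HSC mock. The RefSeq promoter table, of assembly GRCm38.p6, had entries for 8 of the 10 members, with 10 windows in all, from 250 bases before the gene's start to 50 after it. Msr1 and Fn1 had no entry. The stretches printed run from 150 bases before the start through the first 20 bases of the gene, 5′ to 3′ on the gene's strand, with matches in capitals: Trem2 at chr17:48346251-48346420 (+ strand), Gpnmb at chr6:49036368-49036537 (+ strand), Mfge8 at chr7:79149041-79149210 (- strand) and Mrc1 at chr2:14229264-14229433 (+ strand).
Trem2: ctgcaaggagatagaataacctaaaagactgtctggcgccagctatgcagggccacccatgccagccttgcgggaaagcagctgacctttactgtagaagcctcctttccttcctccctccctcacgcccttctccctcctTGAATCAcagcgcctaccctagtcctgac
Gpnmb: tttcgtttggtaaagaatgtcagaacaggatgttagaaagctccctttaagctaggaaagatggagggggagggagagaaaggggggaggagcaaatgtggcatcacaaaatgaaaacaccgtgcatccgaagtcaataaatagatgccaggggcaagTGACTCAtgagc
Mfge8: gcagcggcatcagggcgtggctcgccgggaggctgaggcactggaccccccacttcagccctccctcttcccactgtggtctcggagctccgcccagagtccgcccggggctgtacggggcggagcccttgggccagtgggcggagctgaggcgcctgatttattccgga
Mrc1: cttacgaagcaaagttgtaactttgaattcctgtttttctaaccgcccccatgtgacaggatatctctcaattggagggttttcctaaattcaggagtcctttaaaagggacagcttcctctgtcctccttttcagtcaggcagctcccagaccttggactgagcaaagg

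Both strands of the full windows were searched for 6 motifs. These were TCATGTG (the M-box of the MiT/TFE factors), CACGTG (an E-box), GAGGAAGT (PU.1-like) and TGANTCA (AP-1-like). Also searched were DR1 (a PPAR-RXR-like direct repeat of AGGTCA-like elements) and TGCTGAC (MAF-like). No listed motif contains another. Only the AP-1-like motif was found. In Trem2 TGAATCA begins 9 bases before the gene's start, and in Gpnmb TGACTCA begins at base 9 of the gene. The AP-1-like motif occurs in 7.81% of all 32851 windows of the table. The others occur in 3.77% (M-box), 7.15% (E-box), 3.20% (PU.1-like), 0.0761% (DR1) and 4.67% (MAF-like) of windows, and in 0 of the 10 member windows. The matches of Trem2 and Gpnmb differ at the base that the motif leaves free. For CreER minus mock in LT-HSC-derived cells these genes were at -1.12 and -0.44, and a link to the motif was not tested. A match describes letters only.

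The first comparison was that of CreER with mock among LT-HSC-derived cells. Transcripts of macrophage uptake genes were lower with CreER: Fn1 was 3.18-fold lower, Cd36 2.88-fold, Mfge8 2.51-fold, Mrc1 2.50-fold, Mertk 2.31-fold, Trem2 2.17-fold and Axl 2.09-fold. Thus 7 of 10 members were at least 2-fold lower and none was higher, where 0.767% of the 10172 genes past the floor were at least 2-fold lower and 0.108% higher. As the members were chosen with earlier results of these data known, the contrast with all genes is a description only. Mertk passed the floor there through LT-HSC mock only, so it could enter only by being lower, and among genes above the floor on both arrays 6 of 9 members were at least 2-fold lower, where 0.614% of 9611 genes were. The median of the members was -1.16, against -0.03 for all genes past the floor, and 9 of 10 lay below 0, against 55.6% of those genes. Apoe, the exception, also lay below 0 with each array centred on its median over genes. In ST-HSC-derived cells the same comparison gave 0 of 10 members at 2-fold, where 0.0796% of 10047 genes were 2-fold lower or more and 0.438% higher. There all 10 members lay below 0, against 57.4% of genes past the floor, with a median of -0.31 against -0.03.

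**Figure D2:**
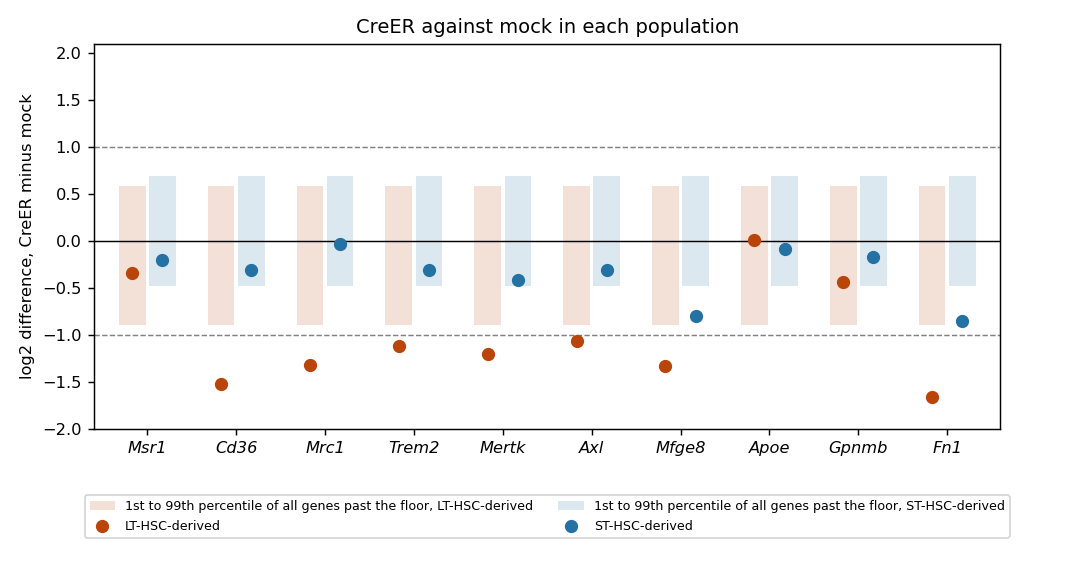
Log2 difference of CreER minus mock (vertical axis) for each gene in LT-HSC-derived and ST-HSC-derived cells, 1 array against 1, with shaded bars for the 1st to 99th percentile of all genes past the floor and dashed lines at 2-fold. In LT-HSC-derived cells 7 points lie below -1, and in ST-HSC-derived cells the lowest points are Fn1 at -0.85 and Mfge8 at -0.80.

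Among the scavenger receptors, Msr1, the class A receptor for modified lipoproteins, stood at 12.29 on ST-HSC mock, 11.58 on LT-HSC mock, 12.09 on ST-HSC CreER and 11.24 on LT-HSC CreER. Both ST-HSC arrays were above both LT-HSC arrays, and the populations did not overlap. The share of all genes whose arrays separate in this way was not counted. Such orders, here and for the genes below, are descriptions only. CreER minus mock was -0.34 (LT-HSC-derived) and -0.20 (ST-HSC-derived), so Msr1 differed less by transduction than by population. Cd36, the class B receptor for oxidised lipoproteins and long-chain fatty acids, stood at 11.99, 11.83, 11.69 and 10.30 in the same order of arrays. ST-HSC mock, LT-HSC mock and ST-HSC CreER lay close together and LT-HSC CreER stood apart below them. For Cd36 both CreER arrays were also below both mock arrays. The Cd36 difference was -1.52 in LT-HSC-derived cells, the 12th lowest of 10172 genes, and -0.30 in ST-HSC-derived cells. Mrc1, the mannose receptor (CD206), stood at 12.02, 12.32, 11.99 and 11.00. Its LT-HSC CreER level likewise stood apart below the other arrays, with differences of -1.32 (LT-HSC-derived) and -0.03 (ST-HSC-derived).

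Trem2, a lipid-sensing receptor that signals through the adaptor DAP12, stood at 11.13 on ST-HSC mock, 11.31 on LT-HSC mock, 10.82 on ST-HSC CreER and 10.19 on LT-HSC CreER. Both CreER arrays were below both mock arrays, and the differences were -1.12 and -0.31. Mertk and Axl are receptor tyrosine kinases of the TAM family, which bind phosphatidylserine through the bridging proteins GAS6 and protein S. Mertk stood at 9.86, 9.21, 9.45 and 8.01, so ST-HSC CreER was above LT-HSC mock and the transductions overlapped. Its difference was -1.21 in LT-HSC-derived cells, where the CreER level under the floor leaves the size uncertain, and -0.42 in ST-HSC-derived cells. Axl stood at 9.89, 10.15, 9.58 and 9.09. For Axl both mock arrays were above both CreER arrays, with differences of -1.07 and -0.31.

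Mfge8, the milk fat globule protein that bridges phosphatidylserine to integrins of the phagocyte, stood at 11.64 on ST-HSC mock, 11.67 on LT-HSC mock, 10.85 on ST-HSC CreER and 10.34 on LT-HSC CreER. The mock arrays differed by 0.03, and both CreER arrays lay well below them, at differences of -1.33 (LT-HSC-derived) and -0.80 (ST-HSC-derived). Fn1, the matrix protein fibronectin, stood at 10.96, 11.11, 10.11 and 9.44. Again the mock arrays were close and both CreER arrays lower, at differences of -1.67 (LT-HSC-derived) and -0.85 (ST-HSC-derived). Mfge8 and Fn1 were the 17th and 14th lowest of the 10047 genes past the floor in ST-HSC-derived cells, where the next member, Mertk, was the 183rd. These 2 were thus the members with the lowest values in ST-HSC-derived cells, at 1.74-fold and 1.81-fold.

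Gpnmb, a lysosomal and surface glycoprotein of lipid-laden macrophages, stood at 13.79 on ST-HSC mock, 13.53 on LT-HSC mock, 13.61 on ST-HSC CreER and 13.10 on LT-HSC CreER. Its order followed that of Msr1, with differences of -0.44 (LT-HSC-derived) and -0.17 (ST-HSC-derived). Apoe, the gene of a lipid-carrying apolipoprotein, stood at 9.18, 9.27, 9.10 and 9.29. The 4 arrays spanned 0.19, the smallest range of the 10 members, and CreER minus mock was 0.015 and -0.082, the former turning to -0.012 with each array centred on its median over genes. Apoe thus did not share the lower value on the LT-HSC CreER array.

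The CreER effect was lower in LT-HSC-derived than in ST-HSC-derived cells for 9 of the 10 members. The LT-HSC effect minus the ST-HSC effect was -1.29 for Mrc1, -1.22 for Cd36, -0.81 for Fn1, -0.81 for Trem2, -0.79 for Mertk, -0.76 for Axl, -0.53 for Mfge8, -0.26 for Gpnmb, -0.14 for Msr1 and 0.10 for Apoe. The median of the members was -0.78, against -0.01 over the same 10411 genes, whose share below 0 was not counted. Of those genes 1.18% reached -1 or lower, and 2 of 10 members did. This difference of differences uses all 4 arrays once, leaves no residual, and was not tested.

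The second question set LT-HSC-derived against ST-HSC-derived cells within each transduction. With mock, the members lay on both sides of 0, with 6 above and 4 below (Mfge8, at 0.028, is at -0.0062 with each array centred on its median over genes), a median of 0.06 and 0 of 10 at 2-fold; 54.9% of the 10208 genes past the floor lay below 0, and 0.402% were at least 2-fold lower and 2.72% higher in LT-HSC-derived cells. Msr1 at -0.71 and Mertk at -0.65 were the lowest members, and Mrc1 at 0.30 and Axl at 0.26 the highest. With CreER, 9 of 10 members were lower in LT-HSC-derived cells, with a median of -0.65 against -0.02 for all genes, and 53.8% of the 10189 genes past the floor lay below 0. Mertk was 2.72-fold and Cd36 2.62-fold lower in LT-HSC-derived cells, and they were the 2 of 10 members past 2-fold, where 0.550% of genes were at least 2-fold lower and 1.39% higher. Mertk could again enter only by being lower, since it was above the floor on ST-HSC CreER alone of that pair. Mrc1 was just inside that threshold, at -0.99, and it passed with each array centred on its median over genes. Apoe was the member above 0, at 0.19.

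**Figure D3:**
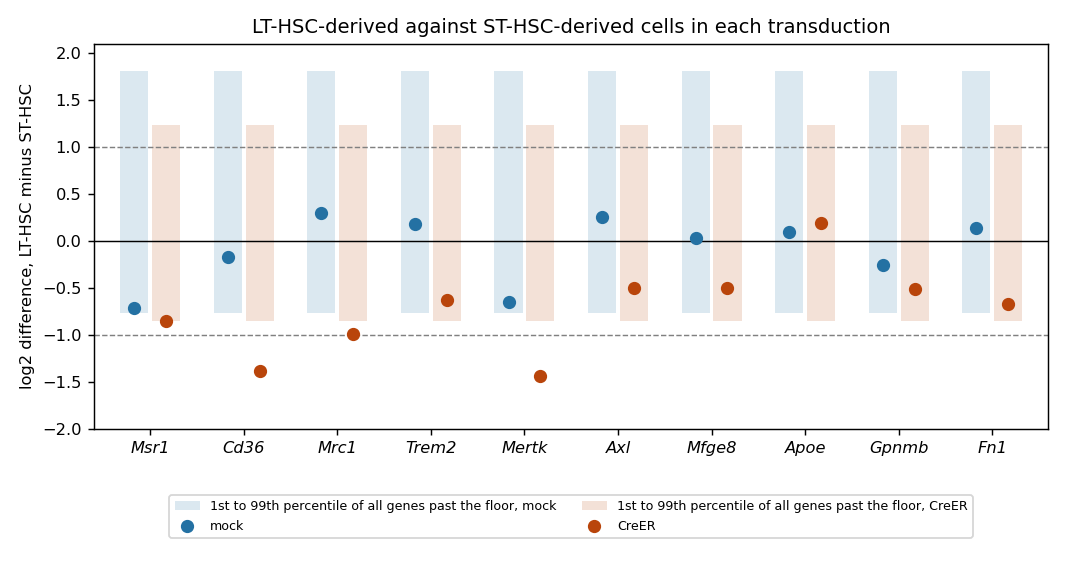
Log2 difference of LT-HSC-derived minus ST-HSC-derived cells (vertical axis) for each gene with mock and with CreER, 1 array against 1, with shaded bars for the 1st to 99th percentile of all genes past the floor and dashed lines at 2-fold. With mock the points lie between -0.71 and 0.30, and with CreER Mertk at -1.44 and Cd36 at -1.39 lie below the -1 line.

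Each array enters 2 of these comparisons: the LT-HSC CreER array is in that of CreER with mock among LT-HSC-derived cells and in that of the populations with CreER, so their values are not separate observations. The rank of Mertk, 36th lowest in the former and 10th in the latter, and that of Cd36, 12th and 14th, are therefore given side by side only.

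An additive limma model with terms for population and transduction set each effect against the spread between these 4 arrays, with 1 residual degree of freedom per gene. That 1 degree of freedom is the difference of the CreER effect between the populations given above, so the model counts this difference as spread. A gene whose CreER effect differed more between the populations therefore has a larger standard error. Nothing in the labels says that cells came from separate animals, so its p-values measure only that spread. The model cannot tell a technical difference from one between the populations. For CreER, 0 of 10411 genes, and 0 of the members, passed a Benjamini-Hochberg adjusted p of 0.05 (limma), and 1048 genes had an unadjusted p under 0.05. At an unadjusted p under 0.05, 8 of 10 members were lower with CreER in limma, where 6.77% of genes were. The sizes were -1.26 ± 0.20 (SE) for Fn1, -1.06 ± 0.15 for Mfge8, -0.91 ± 0.28 for Cd36, -0.81 ± 0.20 for Mertk, -0.72 ± 0.20 for Trem2 and -0.69 ± 0.19 for Axl. The adjusted p in limma was 0.316 for both Fn1 and Mfge8, the smallest value that any gene reached. Their unadjusted p in limma differed, at 0.0012 and 0.00065, so that value is a tie made by the Benjamini-Hochberg adjustment. Other genes can share it, and it does not place these members first among all genes. Mrc1 (-0.68 ± 0.30) and Apoe (-0.03 ± 0.09) were the members above an unadjusted p of 0.05. For Mrc1 and Cd36 the model averages a difference near -0.03 or -0.30 in one population with one beyond -1.3 in the other.

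For population, the LT-HSC minus ST-HSC difference of Msr1 was -0.78 ± 0.10 (SE), with a limma adjusted p of 0.0182, and Msr1 was lower in both of the 2 array pairs. That of Mertk was -1.05 ± 0.20, with a limma adjusted p of 0.0464, also in both pairs. Under other settings the adjusted p of Mertk in limma rose to 0.0622 with quantile normalization, 0.0819 with cyclic loess and 0.0563 with a gene's probe sets averaged. These were the 2 of 10 members past the threshold, where 2.49% of the 10411 genes were lower and 3.78% higher. Gpnmb followed at -0.38 ± 0.11, with a limma adjusted p of 0.108, and Cd36 at -0.78 ± 0.28, with 0.168.

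Genes that work with the members were followed in 8 lists of the same pathway, chosen with earlier results of these data known. Counts are of genes past the floor in that comparison. In LT-HSC-derived cells the lipid handling list had the lowest median, -0.52, with 17 of 19 genes below 0 and 1 at least 2-fold lower, Ch25h, which makes 25-hydroxycholesterol, at -1.30. The fatty acid binding protein genes Fabp4 and Fabp5 were at -0.96 and -0.85, and Rxra, the nuclear receptor partner of PPAR and LXR factors, at -0.69. In ST-HSC-derived cells that list had a median of -0.19 with 16 of 19 below 0 and 0 at 2-fold, Fabp4 at -0.93 and Scd1, a fatty acid desaturase gene, at -0.85. Ch25h was at 0.72 there, and at 1.92 for LT-HSC minus ST-HSC with mock. Fabp4 stood at 10.73 on ST-HSC mock, 9.99 on LT-HSC mock, 9.80 on ST-HSC CreER and 9.04 on LT-HSC CreER, so both CreER arrays were below both mock arrays.

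Genes of apoptotic cell recognition had a median of -0.33 in LT-HSC-derived cells, with 13 of 14 below 0 and 2 at least 2-fold lower. These were Havcr2, the phosphatidylserine receptor TIM-3, and the transglutaminase gene Tgm2, both at -1.03. With mock, both were higher in LT-HSC-derived than in ST-HSC-derived cells, by 1.82 and 1.75, where the highest member, Mrc1, was at 0.30. In ST-HSC-derived cells the list had a median of -0.11, with 9 of 14 below 0 and 0 at 2-fold. The TAM partners themselves were under the floor on all 4 arrays: Tyro3 lay between 7.68 and 7.78, the ligand gene Gas6 at most at 7.65, and Pros1, which encodes protein S, at most at 8.09. Of the integrin chains that bind MFGE8, Itgav differed by -0.05 and -0.16 and Itgb5 by -0.40 and -0.34 in LT-HSC-derived and ST-HSC-derived cells, and Itgb3 by -0.12 and 0.25.

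Of the other scavenger receptors, 4 of 9 genes were below 0 in LT-HSC-derived cells, with a median of 0.13 and 0 at 2-fold. Stab1 and Scarf2 passed the floor there through LT-HSC CreER only, so they could count only above 0, and without them 4 of 7 were below 0, with a median of -0.24. Cd68, a lysosomal macrophage receptor, was at -0.56, Lrp1, a receptor for lipoproteins and apoptotic cells, at -0.42, and Scarb1, the HDL receptor gene, at 0.37. In ST-HSC-derived cells 7 of 10 were below 0, with a median of -0.08, and Cxcl16, a chemokine that also binds oxidised lipoprotein, was 2-fold lower at -1.01. The engulfment and digestion list had a median of -0.11 with 19 of 22 below 0 in LT-HSC-derived and -0.02 with 13 of 22 in ST-HSC-derived cells, and 0 at 2-fold in either. Lysosomal genes had its largest differences in LT-HSC-derived cells, Ctsl at -0.48, Ctsb at -0.46, Slc29a3 at -0.44 and Ctsd at -0.32. The cytoskeletal part of that list, with Elmo1, Dock2, Rac1 and Crkl, stood above the floor on every array.

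The TREM2 and DAP12 signalling list also holds other TREM family receptors and macrophage genes such as Itgax and Csf1r. It had medians of -0.13 (LT-HSC-derived) and 0.07 (ST-HSC-derived), over 16 genes. In LT-HSC-derived cells 10 of them were below 0 and 1 was at least 2-fold lower, and in ST-HSC-derived cells 4 were below 0 and 0 at 2-fold. Tyrobp, which encodes DAP12, stood at 13.42 on ST-HSC mock, 13.48 on LT-HSC mock, 13.53 on ST-HSC CreER and 13.32 on LT-HSC CreER. The adaptor thus spanned 0.21 where Trem2 spanned 1.12. Itgax, the integrin CD11c that marks lipid-associated macrophages and dendritic cells, was the 1 gene past 2-fold, at -1.63. For LT-HSC minus ST-HSC with mock Itgax was at 1.11. Csf1r, the macrophage growth factor receptor gene, was at -0.41 and -0.57 in LT-HSC-derived and ST-HSC-derived cells. In the same order Trem1 was at 0.24 and 0.73, and Treml2 at -0.11 and 0.37.

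Of the MiT/TFE, MAF and other macrophage transcription factors, 9 of 10 were below 0 in LT-HSC-derived cells, with a median of -0.09, and 8 of 10 in ST-HSC-derived cells, with a median of -0.18. Bhlhe41, a repressor of the basic helix-loop-helix family known from alveolar macrophages, was at -1.29 and -0.72, and was the 1 of 10 past 2-fold. Mitf, the factor known to drive Gpnmb in several cell types, was at -0.61 and -0.33, whereas Tfec was at -0.17 in LT-HSC-derived cells. In the alternative activation list 12 of 13 genes were below 0 in LT-HSC-derived cells, the median was -0.47, and 3 were at least 2-fold lower: Retnla (-1.10), the chemokine gene Ccl24 (-1.08) and Irf4 (-1.03). Retnla, Clec10a and Ccl17 were past the floor on LT-HSC mock only, so they could enter this comparison only by being lower on the other array. Without these 3, 9 of 10 genes were below 0, the median was -0.25, and 2 were at least 2-fold lower. In ST-HSC-derived cells 6 of 9 were below 0, with a median of -0.05, and F13a1, the macrophage transglutaminase factor XIII, was 2-fold lower at -1.20. F13a1 was at 0.42 in LT-HSC-derived cells. Irf4 and Pdcd1lg2 passed the floor on 1 array only in ST-HSC-derived cells, which fixed their signs. Without them 5 of 7 genes were below 0 there, and the median was again -0.05. Arg1, the arginase gene, was at -0.97 and -0.91, but at 1.66 for LT-HSC minus ST-HSC with mock, where Mrc1 was at 0.30. In that comparison Retnla and Ccl24 were at 2.34 and 2.17, passing the floor through LT-HSC mock only, and F13a1 was at -1.35. There 10 of the 13 list genes past the floor were above 0 and 3 below.

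Partners of fibronectin had medians of -0.14 and -0.16, with 12 and 11 of 15 genes below 0 in LT-HSC-derived and ST-HSC-derived cells. At least 2-fold lower were Fstl1 (-2.16) and Tgm2 in LT-HSC-derived cells, and Fstl1 (-1.22), F13a1 (-1.20) and the collagen cross-linking enzyme gene Lox (-1.13) in ST-HSC-derived cells. Lox was under the floor on both CreER arrays and passed through the mock arrays only, so it could enter only by being lower. The fibronectin receptor chains Itga5 and Itgb1 stood above the floor on all 4 arrays. Fstl1, a secreted glycoprotein gene, stood at 11.56 on ST-HSC mock, 11.07 on LT-HSC mock, 10.34 on ST-HSC CreER and 8.90 on LT-HSC CreER; both CreER arrays were below both mock arrays. Fibroblasts also make Fn1, Mfge8 and Axl. Of the 10 fibroblast and stromal markers, Col1a1, Col3a1, Thy1 and Acta2 stood above the floor on all 4 arrays, Col1a2 on 3 and Pdgfrb on 2, and Pdgfra, Dcn, Lum and Postn on none. The mean level of that list lay between 7.70 on ST-HSC CreER and 8.04 on LT-HSC CreER, and its part in the values of Fn1, Mfge8 and Axl was not tested.

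**Figure D4:**
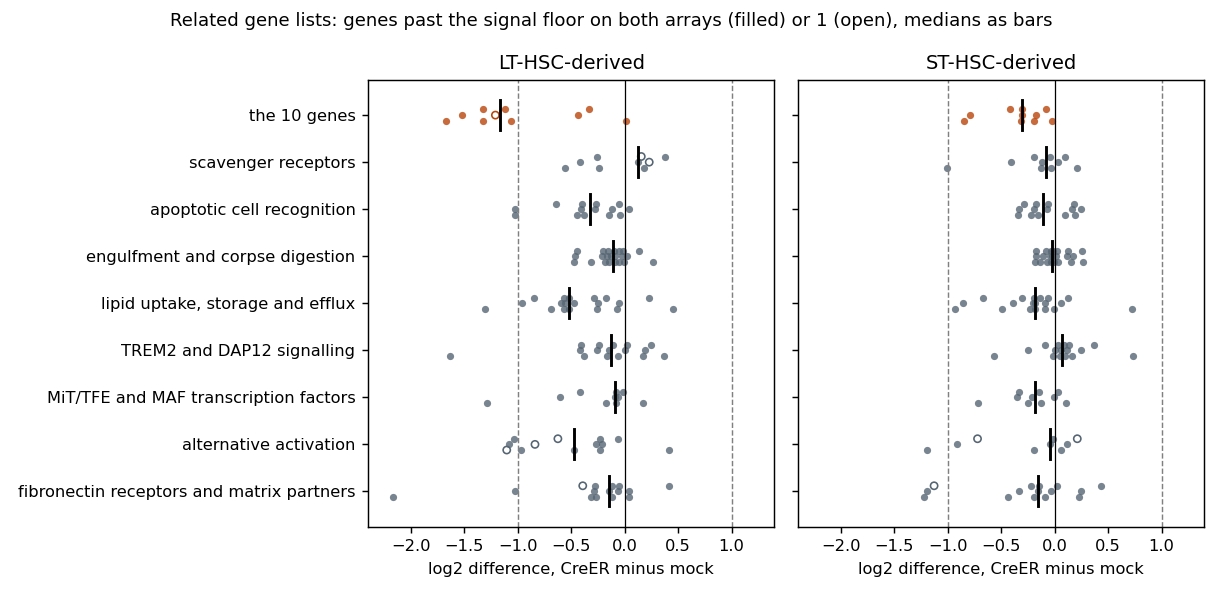
Log2 difference of CreER minus mock (horizontal axis) for the 10 genes and for the genes past the floor of 8 related lists, in LT-HSC-derived cells (left) and ST-HSC-derived cells (right), 1 array against 1, with list medians as black bars, filled points for genes above the floor on both arrays and open points for those above it on 1. In LT-HSC-derived cells the bar of the 10 genes is at -1.16 and that of the lipid list at -0.52, and that of the other scavenger receptors, at 0.13, turns to -0.24 without its open points, Stab1 and Scarf2.

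Marker lists of the cells that colonies can hold were read beside the members. In LT-HSC-derived cells with CreER, all 7 macrophage markers past the floor were below 0, at a median of -0.48 and none past 2-fold. All 7 dendritic cell markers past it, of 13 measured, were below 0, with a median of -0.74 and 2 at 2-fold. These were Itgax, H2-Aa, H2-Ab1, H2-Eb1, Cd74, Batf3 and Irf4. Flt3, Zbtb46, Xcr1, Ciita and Cd209a stood under the floor on every array, and Ccr7 on both LT-HSC arrays. Monocyte markers had a median of -0.04, with 4 of 8 below 0, and neutrophil markers one of 0.19, with 11 of 14 above 0. In ST-HSC-derived cells the medians were -0.13 for macrophage, -0.14 for dendritic cell, -0.30 for monocyte, 0.17 for neutrophil and 1.08 for eosinophil markers. Ccr7 and Irf4 (dendritic cell) and Cx3cr1 (monocyte) passed the floor there through ST-HSC mock only, so they could count only below 0. Without them the medians were -0.12 for dendritic cell and -0.39 for monocyte markers. Mast cell and basophil markers were at -0.31 and 0.60 in LT-HSC-derived and ST-HSC-derived cells, and at 2.29 for LT-HSC minus ST-HSC with mock. Fcer1a and Ms4a2 passed the floor in ST-HSC-derived cells through CreER only, so they could count only above 0. Without them that median was 0.35. With mock, Fcer1a, Ms4a2, Cd200r3 and Tpsb2 passed through LT-HSC mock only, and without them the median was 2.22. Megakaryocyte and platelet markers, of a lineage that also carries Cd36, were at 0.12 and 0.20 for CreER, and at 1.34 and 1.36 for LT-HSC minus ST-HSC with mock and with CreER, where Cd36 was at -0.17 and -1.39. The mean levels of the erythroid, endothelial and adipocyte lists lay between 6.84 and 8.54, with at most 2 genes of a list above the floor on any array. The part of colony composition in the members' values was not tested.

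Likeness of profile was measured as the Euclidean distance between log2 values centred on each gene's mean over the 4 arrays, among 10036 other genes that passed the floor on 1 array or more. With 4 points many genes can lie close, and the distances are descriptions. Among the members themselves the closest were Trem2 and Axl, at 0.11, followed by Mfge8 and Fn1, at 0.24, and Mrc1 and Trem2, at 0.27. The genes nearest to Trem2 were Ms4a6d, Ticam2 and Rab3il1, at 0.05 to 0.13. Ticam2 and Rab3il1 were also near Axl, after P2ry10b at 0.08. Those nearest to Mrc1 were Gask1b at 0.13, Atp6v0d2, a subunit gene of the lysosomal proton pump, at 0.23 and Kynu at 0.26.

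Cd36 and Mertk shared the neighbours Gpr137b and Gpr137b-ps, at 0.23 to 0.28, near-identical copies whose probe sets may read the same RNA. Mfge8 and Fn1 shared Bhlhe41 and Klk1b11, at 0.23 to 0.35, the latter a gene of a large kallikrein family whose probe set may be read by relatives. The third neighbours were Lgmn, the lysosomal protease legumain gene, for Mfge8, at 0.24, and Mcoln3, a lysosomal calcium channel gene, for Fn1, at 0.42. Msr1 was nearest to Rbm47, Gstk1 and Cdc14b, at 0.04 to 0.06, and Gpnmb to Rab11fip5, Zfand2a and Stx8, at 0.02 to 0.05. Apoe was nearest to Zfp395, Rpl9 and Snrpe, all at 0.01, which like Apoe moved little between the arrays.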

How the data were processed

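The authors deposited log2 values for each probe set on 4 Affymetrix arrays; that unit is taken from their spread between 2.21 and 14.82. The submitters' processing notes name Affymetrix Expression Console; no version, summarisation, normalization or build is given in the sources used here. Quartiles of the 4 columns were nearly equal, and the values were used unchanged. Near background such summaries understate differences.

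Of 35556 probe sets, 21789 had 1 gene symbol, 1621 several and 12146 none; where a gene had several probe sets, the one of highest mean stood for it. Arrays were compared over the whole table by log2 differences and the size rule, with no pairwise test. The additive fit used limma 3.58.1 in R 4.3.3 (lmFit, eBayes) with Benjamini-Hochberg adjustment at 0.05 and 4.27 prior degrees of freedom, and was tested on simulated data.

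All 10 members are named, with up to 4 genes per list and comparison with the largest differences past the floor and the 3 nearest profiles per member. Further list and marker genes, such as Tyro3, Gas6, Pros1, Tyrobp, Itgav, Itgb3 and Itgb5, were added for their role after their values were seen. Members and lists were chosen with earlier results of these data known. Alternatives were quantile, cyclic loess and median-centred normalization, averaging a gene's probe sets, leaving out the floor or raising it to the 75th percentile, 1.5-fold and 3-fold thresholds, an eBayes trend, and 0.1 as the adjusted p threshold; a floor on both arrays of a pair was added after seeing the data.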

Additional observations from a re-analysis of the deposited data

Results flagged for a closer look

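For 5 members the difference between the populations had opposite signs with mock and with CreER; each rests on 1 array per group and the opposition was not tested. LT-HSC minus ST-HSC was 0.30 with mock and -0.99 with CreER for Mrc1, 0.18 and -0.63 for Trem2, and 0.26 and -0.50 for Axl. It was 0.028 and -0.50 for Mfge8, whose value with mock turned to -0.0062 with each array centred on its median over genes, so that 4 members then had opposite signs, and 0.14 and -0.67 for Fn1. For Apoe the CreER minus mock difference had opposite signs in the populations, 0.015 (LT-HSC-derived) and -0.082 (ST-HSC-derived), also not tested. With that centring they were -0.012 and -0.077, so the signs were no longer opposite.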

How the results depend on the processing

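All members kept the direction of their differences of 2-fold or more under every normalization and probe set rule tried. The count of members at 2-fold with CreER in LT-HSC-derived cells was 7 under each of them and without a floor, and 6 with the floor at the 75th percentile, which removes Mertk. At 3-fold it was 1 (Fn1). At 1.5-fold the counts were 2 in ST-HSC-derived cells, 2 for the populations with mock and 6 with CreER; the last was 1 with the floor at the 75th percentile and 0 at 3-fold. Over all genes the counts in LT-HSC-derived cells were 53 with that floor, 417 at 1.5-fold and 12 at 3-fold, against 89. They were 200 and 7 at 1.5-fold and 3-fold in ST-HSC-derived cells, against 52. For the populations they were 169, 825 and 143 with mock, against 319, and 93, 697 and 67 with CreER, against 198, under the floor at the 75th percentile, 1.5-fold and 3-fold. A raised floor tests fewer genes. In the additive limma fit 1 member, Msr1, passed for population with quantile normalization, cyclic loess, the mean of probe sets and the floor at the 75th percentile, where Mertk was at -1.06, -1.03 and -1.05 under the first 3 and not tested under the last; the cause was not tested. All genes passing for population were 368 with cyclic loess, 186 with the raised floor and 1401 at an adjusted p of 0.1, against 653. The CreER effect of Apoe turned to 0.00025 with quantile normalization, and the cause was not tested. The labels carry no replicate numbers, so no replicate block was fitted; the additive fit holds population as a term. Requiring both arrays to be above the floor was chosen after seeing the data. It left 6 members at 2-fold in LT-HSC-derived cells and 1 member (Cd36) for the populations with CreER, and 179 and 115 of all genes for the populations with mock and with CreER; fewer genes enter. The median of the other scavenger receptors in LT-HSC-derived cells turned from 0.13 to -0.24, since it leaves out Stab1 and Scarf2. With each array centred on its median over genes, Mfge8 (LT-HSC minus ST-HSC with mock) turned to -0.0062 and Apoe (CreER minus mock, LT-HSC-derived) to -0.012. Signal over background limits Mertk, whose LT-HSC CreER level lay below the floor.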
